A study of Mus musculus with 15 samples.

Results

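Basal cell carcinoma cells that remained in mouse skin after 14 days of vismodegib were compared with tumour cells from controls, using 3 libraries labelled with 14 days of the drug and 4 libraries labelled control, of 15 in the series. All 3 and all 4 libraries with these treatment labels entered the comparison, and another 8 libraries, at 6 days, shared the fit. Every library came from skin tumours of mice that carried K14Cre-ER, a tamoxifen-inducible Cre recombinase driven by the keratin 14 promoter of basal keratinocytes, together with the conditional alleles Ptch1fl/fl and p53fl/fl and the reporter Lgr5GFP. The controls carried all of these alleles and are described as untreated. Tumour cells were sorted by flow cytometry and polyA RNA was sequenced. The labels used here give no sort gate, dose, age or number of animals per library, and they do not state whether replicates are separate animals. Each p-value therefore measures the spread between these libraries, which may be technical. Replicate numbers below (control 1 to 4 and 14-day 1 to 3) are names in accession order only.

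Vismodegib binds SMO, the membrane protein that passes on the Hedgehog signal. PTCH1 normally holds SMO inactive until a Hedgehog ligand binds, and loss of Ptch1 leaves SMO active, so that the GLI transcription factors drive genes such as Gli1, Ptch1 and Hhip without ligand. In skin the pathway is used by the hair germ and growing hair follicle, and basal cell carcinomas resemble follicle cells held in such a state. The follicle also holds other compartments, among them the resting bulge, where stem cells express Krt15 and Nfatc1, the upper follicle, and the neighbouring interfollicular epidermis with its basal and suprabasal layers.

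CPM below stands for a count relative to its library total after trimmed-mean (TMM) normalization, given in the order of replicate numbers. Total counts were 29108107 to 95464249 in the controls and 119045864 to 162951666 at 14 days, so that a floor of 3 counts was at most 0.103 CPM in these 7 libraries (counting error only). The submitters' sample identifiers fall into 3 number ranges that the labels do not call batches. The 14-day libraries fill 1 range alone, while control 4 lies in a range with 3 of the 6-day libraries and the other controls in a range with 5, so range and 14 days cannot be told apart. In 3 of 3 14-day libraries and in 2 of 4 controls, Xist was above the Y-linked Ddx3y. The libraries carried the defining transcripts of follicular and basal keratinocytes. Krt5 was at 8041, 5280, 4625 and 8948 CPM in the controls and 10430, 6180 and 8212 CPM at 14 days (log2 change 0.30, adjusted p = 0.679). Krt14, whose promoter drives the Cre, was at 6863, 2319, 3069 and 1863 CPM and 15550, 3657 and 6657 CPM (log2 change 1.29, adjusted p = 0.107). The follicular factor gene Sox9 was at 919, 1108, 992 and 588 CPM and 451, 1144 and 1014 CPM (log2 change -0.05, adjusted p = 0.959). The groups overlapped for all 3 genes. Keratinocyte transcripts were present at 14 days, but these 3 genes do not tell tumour cells from other keratinocytes.

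Residual tumour cells differed from the controls in 1238 of 18751 genes tested (6.6%), where a call means an adjusted p (Benjamini-Hochberg) under 0.05 in edgeR's quasi-likelihood test. Of these, 609 were higher (3.25% of genes tested) and 629 lower (3.35%). Each count of calls in a gene list below is to be read beside these shares. At least 2-fold changes made up 378 of the higher (2.02%) and 506 of the lower calls (2.7%). The 3 14-day libraries all lay above or all below the 4 controls for 4394 genes (23.4%), and 1204 genes (6.42%) were both called and separated in this way. On data simulated for this comparison with 18751 genes, the test recovered 62 of 100 genes changed 4-fold and 11 of 100 changed 2-fold, with 5 false among 78 calls. The count of calls depended on single libraries, and below, a value given without a library comes from a fit that left it out. There were 376, 565 and 466 calls without 14-day 1, 2 and 3, and 797 and 634 without control 2 and 3. Calls made in all 7 fits that left out 1 library numbered 252, of which 121 were higher and 131 lower. In a fit of the 7 libraries alone 374 genes were called, 343 of them shared with the 1238. Of the 87 called genes named below, 48 kept their calls in that fit, and no called gene took the opposite sign there or in any fit that left out 1 library. Among called and separated genes with an established name and a mean of 10 CPM or more, the 19 highest considered here were 8.24 to 70.5-fold higher and the 20 lowest 22.6 to 693-fold lower, and 9 and 8 of them are described.

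**Figure D1:**
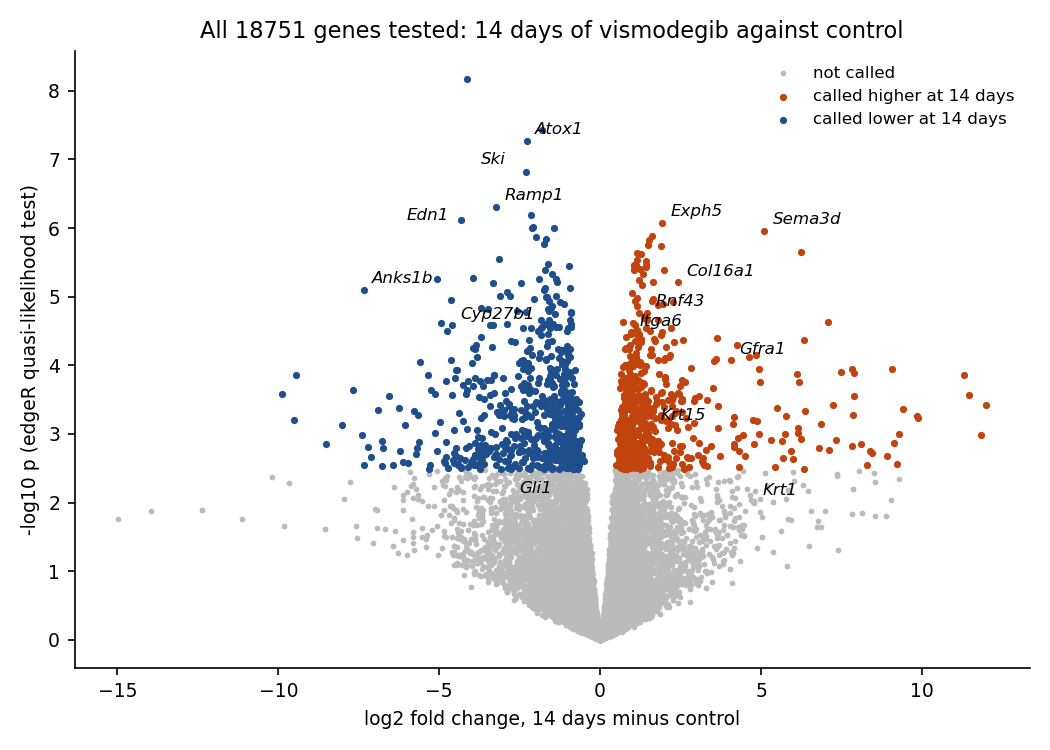
Each point is 1 of 18751 genes, placed by its log2 fold change at 14 days minus control (horizontal axis) and by -log10 of its unadjusted p (vertical axis). The 609 genes called higher are orange, the 629 called lower are blue and the rest are grey, and labelled genes are described in the text.

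Of the 10 genes with an established name and the lowest p-values, chosen after their values were seen, 8 fell. The lowest p of all belonged to 2610307P16Rik, a gene with only a clone name, which fell too (log2 fold change -4.15, SE 0.36, adjusted p = 0.000125). Atox1, which encodes a copper chaperone, was at 332, 264, 282 and 266 CPM in the controls and 53.9, 58.5 and 64.3 CPM at 14 days. The groups lay far apart, with every 14-day library far under the lowest control (4.85-fold lower, log2 fold change -2.28, SE 0.23, adjusted p = 0.000333). Ski, a proto-oncogene whose product represses SMAD-dependent transcription of the TGF-beta pathway, was at 307, 394, 328 and 505 CPM and 64.9, 74.7 and 95.4 CPM, again without overlap (4.89-fold lower, log2 fold change -2.29, SE 0.25, adjusted p = 0.000717). Edn1 (Entrez Gene 13614, chromosome 13, 42301476 to 42307990 on GRCm38), which encodes the peptide endothelin-1, was at 50.9, 74.6, 47.1 and 144 CPM and fell to 5.46, 2.49 and 3.88 CPM (20.1-fold, log2 fold change -4.33, SE 0.54, adjusted p = 0.0017). Ramp1, a subunit of the receptor for the neuropeptide CGRP, was at 38, 87.6, 57.5 and 59.5 CPM and fell to 5.15, 4.91 and 9.35 CPM (log2 fold change -3.23, SE 0.39, adjusted p = 0.0017). The sugar epimerase gene Galm, the complex I subunit gene Ndufb1, Tmem256 and Ranbp9 fell as well, with log2 fold changes of -1.82, -2.15, -2.10 and -1.44 and adjusted p between 0.000333 and 0.0017. Exph5, whose product acts with RAB27 GTPases in vesicle transport and is mutated in a skin fragility disorder, and Sema3d were the 2 of these 10 genes that rose. Exph5 was at 16, 21.8, 17.5 and 28.2 CPM in the controls and 103, 69.5 and 63.3 CPM at 14 days (log2 fold change 1.91, SE 0.24, adjusted p = 0.0017). 2610307P16Rik, Atox1, Ski, Edn1, Ramp1, Galm, Ndufb1, Tmem256, Ranbp9 and Exph5 kept their calls in 7 of 7 fits that left out 1 library.

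Of the Hedgehog pathway's target genes, 4 of 13 tested fell (3.35% of all genes tested were called lower) and none rose, with a median log2 fold change of -1.23, against -0.02 over all genes tested. Ptch1 (Entrez Gene 19206, chromosome 13, 63508328 to 63573460 on GRCm38) was at 385, 934, 679 and 2280 CPM in the controls and 53.1, 79.4 and 129 CPM at 14 days (12.3-fold lower, log2 fold change -3.62, SE 1.01, adjusted p = 0.0454). Which exons the conditional allele removes is not in the labels, so a count over the whole gene checks neither the deletion nor the label. Hhip, whose product binds and sequesters Hedgehog ligands, was at 287, 1332, 625 and 287 CPM and 28.6, 85.2 and 159 CPM (6.96-fold lower, log2 fold change -2.80, SE 0.76, adjusted p = 0.0394). Foxe1, a forkhead factor gene of the follicle, was at 12, 7.28, 6 and 11 CPM and 0.0411, 0.132 and 0.639 CPM, and in 14-day 1 its level was close to the floor (33.5-fold lower, log2 fold change -5.07, SE 1.34, adjusted p = 0.036). Rab34, which encodes a GTPase needed to build some primary cilia, had the smallest change of the 4, at 308, 463, 347 and 379 CPM in the controls and 106, 166 and 208 CPM at 14 days (2.34-fold lower, log2 fold change -1.23, SE 0.25, adjusted p = 0.0104). All 4 were separated between groups, and 14-day 3 kept the most transcript of each. In bulk libraries such as these, fewer cells of a type and less RNA per cell cannot be told apart.

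Gli1 itself did not pass the test. It was at 239, 489.6, 423 and 1801 CPM in the controls and 61.6, 116 and 146.2 CPM at 14 days (log2 fold change -2.78, SE 0.92, adjusted p = 0.0848), with every 14-day library below every control and control 4 far above the others. Ccnd1, the cyclin D1 gene and a further target, was separated in the same way at 128, 209, 169.7 and 524 CPM and 38.2, 41.7 and 50.2 CPM (log2 fold change -2.57, SE 0.94, adjusted p = 0.114). Each still had transcript in every 14-day library. Gli2 (log2 change -1.15, adjusted p = 0.321) and Gli3 (log2 change -0.08, adjusted p = 0.922), the factors that transmit the signal upstream of Gli1, overlapped between groups. Of the 14 tested genes for the pathway's machinery edgeR called none (2 higher and 1 lower at an unadjusted p under 0.05, 1 lower by DESeq2, and 2 higher and 1 lower by limma-voom). Smo, encoding the drug's target, was at 228, 308, 230.3 and 330.1 CPM and 285, 288 and 296 CPM (log2 fold change 0.08, SE 0.23, adjusted p = 0.875). Calls were lost for Ptch1 without control 2, 3 or 4 or 14-day 1, 2 or 3 (adjusted p 0.0659 to 0.182; 7.67-fold without control 4), Hhip without control 2 or 3 or 14-day 1, 2 or 3 (adjusted p 0.0571 to 0.159; 4.38-fold without control 2 and 11-fold without 14-day 3) and Foxe1 without control 2 or 3 or 14-day 1 or 2 (adjusted p 0.0579 to 0.14; 103-fold without 14-day 3). With 1 library left out, no call was made for Rab34 without 14-day 1 (adjusted p 0.0565). The 13 targets had medians from -1.45 without 14-day 3 to -0.99 without 14-day 1, with 1 call without control 2 or 3 or 14-day 2, 0 calls without 14-day 1 and 2 calls without 14-day 3. DESeq2, limma-voom and the fits with the second identifier range as a covariate or left out each called 6 lower. With no filter, with Xist above Ddx3y as a covariate and with length offsets 3 were lower. The 7 libraries alone also gave 3, without Hhip (adjusted p 0.099) and Rab34 (adjusted p 0.0602).

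**Figure D2:**
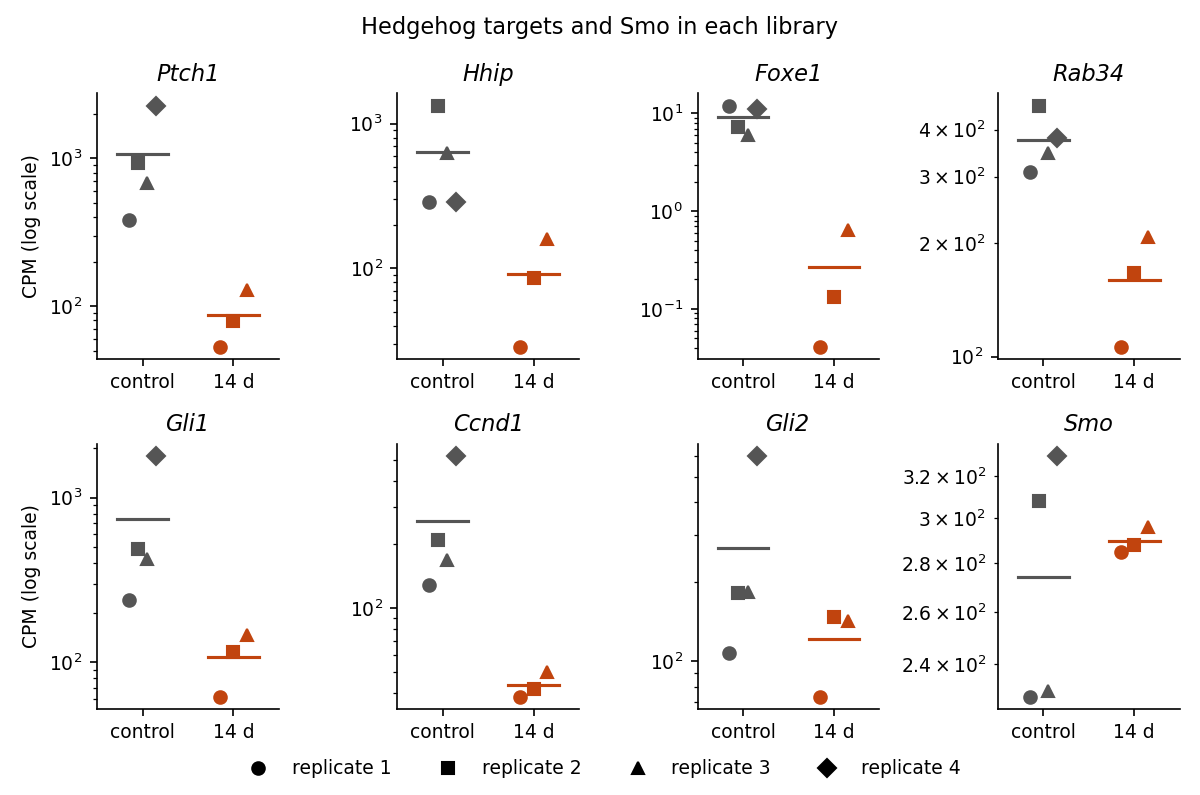
Levels in CPM on a log axis for 7 Hedgehog targets and Smo in 4 control (grey) and 3 14-day (orange) libraries, with a symbol for each replicate number and a bar at the group mean. The 14-day points lie below all controls for Ptch1, Hhip, Foxe1, Rab34, Gli1 and Ccnd1, of which the last 2 were not called, and overlap the controls for Gli2 and Smo.

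Whether the fallen genes share the binding letters of GLI factors near their start was looked at in RefSeq promoter windows of GRCm38.p6, 250 bases before to 50 after the start. The GLI consensus GACCACCCA, sought on both strands, occurred in 83 of 32851 windows (0.253%). It was in 2 of the 455 called-lower genes with a window (0.44%), in 1 of 468 called-higher genes (0.214%) and in 31 of 12134 genes not called (0.255%). Of the 14 Hedgehog targets 7 had a window and 0 held these letters. The windows of the pair of called-lower genes are shown because they are the only ones among the fallen genes with the exact consensus (capitals, 5′ to 3′ on the gene's strand). Cltb encodes a clathrin light chain (log2 fold change -2.30, SE 0.44, adjusted p = 0.00826), and its match lies 56 bases before the start. Znhit1 encodes a subunit of a chromatin remodeller (log2 fold change -0.93, SE 0.20, adjusted p = 0.0134), with the match 211 bases before the start that the table gives, inside the gene's annotated span of 136982194 to 136987959. Cltb kept its call in 7 of 7 fits that left out 1 library. The threshold was missed for Znhit1 without 14-day 1 or 3 (adjusted p 0.0571 to 0.0804). A match is a description of the letters, not a binding site.
Cltb, chr13:54611395-54611454, minus strand: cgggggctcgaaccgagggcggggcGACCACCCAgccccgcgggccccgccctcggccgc
Znhit1, chr5:136987081-136987140, minus strand: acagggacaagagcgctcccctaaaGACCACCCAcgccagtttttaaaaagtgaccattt

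Hair germ and placode genes, which mark the downward-growing follicle, gave 2 lower calls and 1 higher among 16 tested (median log2 fold change -0.56). Edar, the ectodysplasin receptor gene required for hair placodes, was at 4.93, 26.6, 13.8 and 17.5 CPM in the controls and 0.842, 0.846 and 0.993 CPM at 14 days (17.5-fold lower, log2 fold change -4.13, SE 0.86, adjusted p = 0.0127). The 14-day libraries were close to each other and all below the lowest control. Hoxc13, a homeobox gene that controls hair keratins, was at 51.4, 55.1, 65.8 and 173 CPM and 3.2, 13.6 and 14.2 CPM (8.34-fold lower, log2 fold change -3.06, SE 0.74, adjusted p = 0.0233). Gata3, a factor of the inner root sheath that is also expressed in epidermis, rose from 279, 159.8, 182 and 243 CPM to 651, 263 and 399.8 CPM with overlapping groups (log2 fold change 1.02, SE 0.28, adjusted p = 0.0436). Lhx2 (log2 change -1.59, adjusted p = 0.0717), Msx2 (log2 change -1.27, adjusted p = 0.1) and Dlx3 (log2 change -2.70, adjusted p = 0.122), transcription factor genes of the germ and hair matrix, had separated groups but were not called. Hair germ genes had medians from -0.90 without 14-day 3 to -0.35 without control 1, with 0 higher and 2 lower calls without control 2, 3 or 4, 0 higher and 0 lower calls without 14-day 1 or 3 and 1 higher and 0 lower calls without 14-day 2. Fits with 1 library left out gave no call for Edar without 14-day 1, 2 or 3 (adjusted p 0.0537 to 0.0661), Hoxc13 without 14-day 1, 2 or 3 (adjusted p 0.063 to 0.103) and Gata3 without control 2, 3 or 4 or 14-day 1 or 3 (adjusted p 0.0556 to 0.269).

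Genes of the basal layer and its anchorage to the basement membrane were among those that rose, with 3 calls of 16 tested (median 0.38). Itga6 (Entrez Gene 16403, chromosome 2, 71786886 to 71858427 on GRCm38), the integrin alpha6 subunit of hemidesmosomes, was at 377, 289.9, 296 and 327 CPM in the controls and 742, 534 and 602 CPM at 14 days (1.94-fold higher, log2 fold change 0.96, SE 0.16, adjusted p = 0.005). Col17a1, the transmembrane collagen of hemidesmosomes, was at 1316, 1649, 1118 and 2163 CPM and 4867, 4799 and 4271 CPM (2.98-fold higher, log2 fold change 1.57, SE 0.36, adjusted p = 0.0184). Lamb3, a chain of laminin-332 to which they attach, was at 710.5, 982, 627 and 838 CPM and 1510, 1669 and 1455 CPM (log2 fold change 0.97, SE 0.26, adjusted p = 0.0402). None of these groups overlapped, and each 14-day library was higher than the highest control. The partner integrin gene Itgb4 (log2 change 1.01, adjusted p = 0.074) and the basal factor gene Trp63 (log2 change 0.74, adjusted p = 0.0774) were also separated but missed the threshold, and Itgb1 overlapped (log2 change -0.23, adjusted p = 0.625). Of genes for cell to cell adhesion, Cdh1 (E-cadherin) was at 1023, 839, 685 and 456 CPM and 1891, 1558 and 1644 CPM (log2 fold change 1.18, SE 0.28, adjusted p = 0.0241). Pkp3, a desmosomal plakophilin, was at 812, 778, 642 and 599 CPM and 1667, 1293 and 1214 CPM (log2 fold change 0.97, SE 0.19, adjusted p = 0.0104), the 1 call among 13 desmosome genes tested (median 0.80). Basal layer genes had medians from 0.25 without control 3 to 0.62 without control 1, with 1 call without control 3 or 14-day 1 or 2. Desmosome genes had medians from 0.46 without 14-day 1 to 0.96 without 14-day 2, with 3 calls without control 1, 0 calls without 14-day 1 and 2 calls without 14-day 2. Itga6 was called in 7 of 7 fits that left out 1 library but not in the fit of the 7 libraries alone (adjusted p 0.0551). In fits that left out 1 library, calls were missing for Col17a1 without control 3 or 14-day 1 or 2 (adjusted p 0.0535 to 0.0656), Lamb3 without any 1 of the 7 (adjusted p 0.0524 to 0.119) and Cdh1 without control 2 or 3 or 14-day 1, 2 or 3 (adjusted p 0.0507 to 0.0964). Here edgeR made no call for Pkp3 without 14-day 1 (adjusted p 0.0556).

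The collagens otherwise fell more often than they rose, with 5 lower and 2 higher calls among 18 tested (median -1.30). Col4a1, a basement membrane collagen, was at 387, 556, 504 and 814 CPM in the controls and 126, 93.5 and 110.2 CPM at 14 days (5.14-fold lower, log2 fold change -2.36, SE 0.51, adjusted p = 0.0147). Col5a1, a regulator of fibril assembly, was at 48.5, 70.1, 59.1 and 92.8 CPM and 13.5, 17.2 and 24.2 CPM (log2 fold change -1.89, SE 0.38, adjusted p = 0.0104). Col14a1, a fibril-associated collagen, was at 229.8, 419, 356 and 494 CPM and 5.38, 26.9 and 24.2 CPM (log2 fold change -4.32, SE 1.23, adjusted p = 0.0476). All 3 were separated between groups, with the lowest controls still at least 2-fold above the highest 14-day library. Col6a3 (log2 change -5.12, adjusted p = 0.0256) and Col27a1 (log2 change -6.24, adjusted p = 0.0163) were the other calls in this direction. Col16a1, a collagen found near epithelial basement membranes, went the other way, from 109, 38.7, 73.1 and 42.9 CPM to 471, 282 and 307 CPM (5.36-fold higher, log2 fold change 2.42, SE 0.36, adjusted p = 0.00245), and the other higher call was Col17a1. The fibroblast markers that could carry collagen transcripts were low throughout, with Col1a1, Col1a2 and Col3a1 at means of 5.08, 3.64 and 2.51 CPM in the controls and 1.06, 1.06 and 0.62 CPM at 14 days and 0 of 11 fibroblast markers called by edgeR (2 lower at an unadjusted p under 0.05, 2 lower by DESeq2 and 1 by limma-voom; median -1.65). Their part in the result was not tested. Collagen genes had medians from -1.47 without 14-day 3 to -1.03 without control 1, with 1 higher and 4 lower calls without control 3, 1 higher and 0 lower calls without 14-day 1, 1 higher and 1 lower calls without 14-day 2 and 2 higher and 1 lower calls without 14-day 3. Col16a1 kept its call in 7 of 7 fits that left out 1 library. Calls were lost for Col4a1 without 14-day 1, 2 or 3 (adjusted p 0.0593 to 0.063), Col5a1 without 14-day 1 (adjusted p 0.0616) and Col14a1 without control 2, 3 or 4 or 14-day 1, 2 or 3 (adjusted p 0.0674 to 0.183). With 1 library left out, no call was made for Col6a3 without 14-day 1, 2 or 3 (adjusted p 0.0905 to 0.113) and Col27a1 without 14-day 1, 2 or 3 (adjusted p 0.0598 to 0.0865; 45.4-fold without control 4).

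Among markers of the resting follicle, 2 were called higher at 14 days. Krt15 (Entrez Gene 16665, chromosome 11, 100131759 to 100135949 on GRCm38), the bulge keratin gene, was at 3880, 3945, 3179 and 4461 CPM in the controls and 9670, 14430 and 11440 CPM at 14 days (3.06-fold higher, log2 fold change 1.62, SE 0.38, adjusted p = 0.0223). Nfatc1, a factor that keeps bulge stem cells at rest, was at 478, 374, 421 and 156 CPM and 719, 1303 and 1479 CPM (3.26-fold higher, log2 fold change 1.71, SE 0.41, adjusted p = 0.0245). Neither pair of groups overlapped, and 14-day 1 was the lowest of its group for both genes. They were the 2 calls among 16 bulge genes tested (median 0.31), of which 10 had a positive log2 fold change. In another 2 bulge genes, not called by edgeR, every 14-day library was below every control. DESeq2 and limma-voom each called 1 bulge gene lower. Lgr5, the locus of the reporter, was at 340.2, 674, 572 and 593 CPM and 281, 1027 and 800.1 CPM (log2 fold change 0.37, SE 0.39, adjusted p = 0.625), with 14-day 1 below every control and the other 2 above. Lgr6 (log2 change 0.90, adjusted p = 0.197), Lrig1 (log2 change 0.54, adjusted p = 0.19) and Cd34 (log2 change 1.59, adjusted p = 0.226), markers of stem cell populations of the isthmus, junctional zone and bulge, overlapped and were not called. Gata6, which marks the upper follicle and sebaceous duct, was at 41.2, 14.1, 24.3 and 17.5 CPM and 60.9, 68.6 and 59.3 CPM (log2 fold change 1.37, SE 0.36, adjusted p = 0.0344). Of the 18 upper follicle genes tested, Gata6 and Ccn2 were higher (median 0.72). Krt79, a keratin of the upper follicle, ranged from 543 CPM in control 2 to 6376 CPM in control 1 and did not pass the test (log2 change 0.20, adjusted p = 0.916). Bulge genes had medians from 0.08 without 14-day 2 to 0.61 without 14-day 1, with 0 calls without control 2 or 3 or 14-day 2 or 3. Upper follicle genes had medians from 0.19 without 14-day 1 to 1.78 without control 1, with 6 calls without control 1, 1 call without control 2, 3 or 4 or 14-day 1 or 2 and 0 calls without 14-day 3. The threshold was missed for Krt15 without control 2 or 3 or 14-day 2 or 3 (adjusted p 0.0579 to 0.0754), Nfatc1 without control 2 or 3 or 14-day 2 or 3 (adjusted p 0.0568 to 0.0987) and Gata6 without control 2, 3 or 4 or 14-day 1, 2 or 3 (adjusted p 0.0707 to 0.0935).

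Suprabasal keratinocyte genes spread widely over the 3 14-day libraries. Krt10 was at 447, 168, 178 and 163 CPM in the controls and 3011, 167 and 1016 CPM at 14 days (log2 fold change 2.55, SE 0.71, adjusted p = 0.0452). The level in 14-day 2 lay inside the control range and the other 2 lay above it. Krt1, the partner keratin of Krt10, was at 147, 1.49, 19.1 and 0.996 CPM and 2779, 36.1 and 660.4 CPM (log2 fold change 4.78, SE 1.61, adjusted p = 0.0882) and was not called. Cdsn, the corneodesmosin gene of the outermost layers, was at 4.88, 0.683, 1.47 and 1.94 CPM and 12.3, 5.32 and 9.04 CPM without overlap (log2 fold change 1.99, SE 0.54, adjusted p = 0.0408). Of 26 suprabasal genes tested, 2 were called higher and 22 had a positive log2 fold change (median 1.68). Their summed level was 2609, 767, 813 and 1019 CPM in the controls and 8490, 742 and 2866 CPM at 14 days, so that control 1 was the highest of its group and 14-day 2 was below every control. Suprabasal genes had medians from 0.96 without 14-day 1 to 2.94 without control 1, with 10 calls without control 1, 0 calls without control 2, 3 or 4 or 14-day 1 or 3 and 1 call without 14-day 2. Genes of epidermal lipid metabolism gave 2 higher calls of 18 tested (median 1.43). Pla2g4f, a cytosolic phospholipase gene, was at 0.596, 0.446, 1 and 0.515 CPM and 109.8, 1.34 and 22.4 CPM (log2 fold change 6.13, SE 1.21, adjusted p = 0.00989), with the same order of 14-day libraries as Krt10. The other call was Gdpd2 (log2 change 5.77, adjusted p = 0.0186). Hal, the histidine ammonia-lyase gene of differentiating epidermis, was at 1.06, 0.446, 0.844 and 1.31 CPM and 19.9, 4.31 and 10.3 CPM (log2 fold change 3.64, SE 0.64, adjusted p = 0.00563). Epidermal lipid genes had medians from 0.59 without 14-day 1 to 1.84 without control 1, with 6 calls without control 1, 1 call without control 2 and 0 calls without 14-day 1. Hal (8.01-fold without 14-day 1) kept its call in 7 of 7 fits that left out 1 library. Fits with 1 library left out gave no call for Krt10 without control 2, 3 or 4 or 14-day 1 or 3 (adjusted p 0.0792 to 0.344; 2.5-fold without 14-day 1), Cdsn without control 2, 3 or 4 or 14-day 1, 2 or 3 (adjusted p 0.0531 to 0.172; 6.52-fold without control 1) and Pla2g4f without 14-day 1 (adjusted p 0.0542; 18.7-fold without 14-day 1). In fits that left out 1 library, calls were missing for Gdpd2 without control 2 or 14-day 1 (adjusted p 0.0518 to 0.104; 18.4-fold without 14-day 1).

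**Figure D3:**
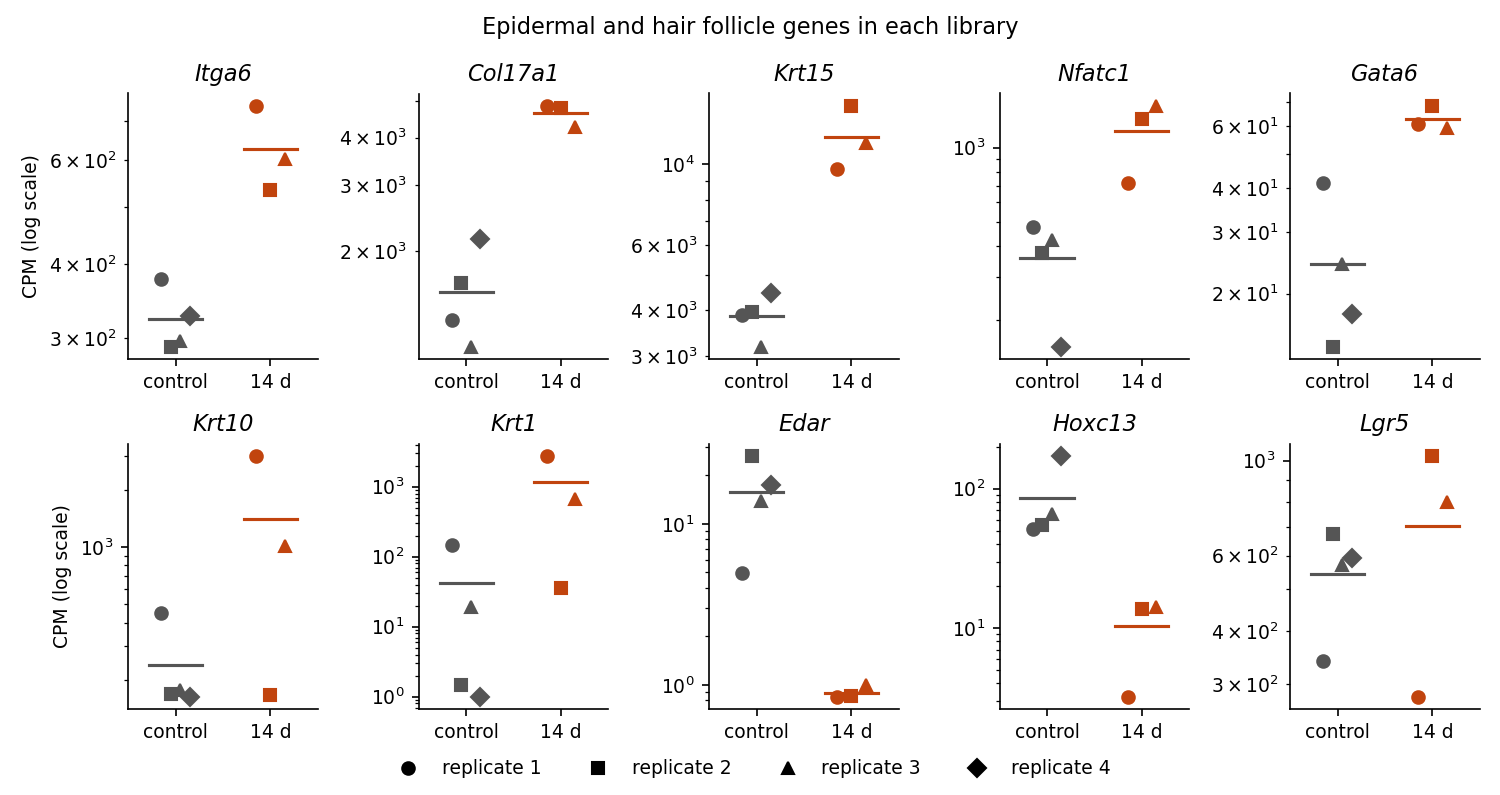
Levels in CPM on log axes for 10 genes of epidermal and follicular compartments in 4 control (grey) and 3 14-day (orange) libraries, with a symbol for each replicate number and a bar at the group mean. Itga6, Col17a1, Krt15, Nfatc1 and Gata6 were higher and Edar and Hoxc13 lower at 14 days without overlap, whereas Krt10, Krt1 and Lgr5 overlapped.

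Among Wnt pathway readouts 2 of 13 were called, both higher (median 0.76). Rnf43, which encodes a ubiquitin ligase that removes Wnt receptors and is itself induced by Wnt, was at 29.1, 24.9, 37.3 and 37.2 CPM in the controls and 77.6, 99.6 and 89.5 CPM at 14 days (2.77-fold higher, log2 fold change 1.47, SE 0.24, adjusted p = 0.0038). Tnfrsf19 (Troy), a receptor gene of the ectodysplasin family, was at 44, 6.83, 15.5 and 3.32 CPM and 376, 38.8 and 105 CPM with overlap between control 1 and 14-day 2 (log2 fold change 3.32, SE 0.94, adjusted p = 0.0464). Axin2 (7.56, 2.23, 5.87 and 30.7 CPM and 20.4, 18 and 20.6 CPM, log2 change 0.76, adjusted p = 0.573) and Lef1 (log2 change -0.21, adjusted p = 0.841), the most used readouts, overlapped and were not called. The ligand gene Wnt3a was low but separated, at 2.77, 1.01, 0.5 and 1.13 CPM and 22.6, 10.9 and 12.4 CPM (log2 fold change 3.50, SE 0.72, adjusted p = 0.0123). Wnt readouts had medians from 0.59 without control 2 to 0.99 without control 4, with 1 call without control 2, 3 or 4 or 14-day 1 or 3. Rnf43 kept its call in 7 of 7 fits that left out 1 library. Here edgeR made no call for Tnfrsf19 without control 2, 3 or 4 or 14-day 1 or 3 (adjusted p 0.0767 to 0.285; 20.5-fold without control 1 and 4.15-fold without 14-day 1) and Wnt3a without 14-day 1 (adjusted p 0.0531; 17.3-fold without control 1).

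In the Notch pathway 2 of 15 genes tested were called, both lower (median -0.41). Heyl, a transcriptional target of Notch, was at 13, 11.3, 6.06 and 36.6 CPM in the controls and 0.472, 0.807 and 1.35 CPM at 14 days (19.1-fold lower, log2 fold change -4.25, SE 0.87, adjusted p = 0.0114). Nrarp, a feedback inhibitor induced by Notch, was at 169.8, 178, 153 and 236 CPM and 125, 69 and 99.6 CPM (log2 fold change -0.91, SE 0.25, adjusted p = 0.0409). Both were separated, and 14-day 1 was nearest to the controls for Nrarp and farthest for Heyl. Of 13 targets of the mechanical effector YAP, 2 were higher and 1 lower (median 0.42). Ccn2, encoding a matricellular protein, was at 90.8, 157, 155 and 97.5 CPM and 331, 860.1 and 946 CPM (5.71-fold higher, log2 fold change 2.51, SE 0.54, adjusted p = 0.0147). Ajuba, encoding a LIM protein that binds Hippo kinases, rose by less (log2 change 0.65, adjusted p = 0.0366). Gadd45a, a stress-inducible gene that is also among the targets of p53, fell from 45, 85.3, 44.4 and 46.6 CPM to 8.05, 4.64 and 9.8 CPM (7.38-fold, log2 fold change -2.88, SE 0.48, adjusted p = 0.00467). Among 19 genes of the BMP and TGF-beta pathways (median -0.22) edgeR called none, with 3 higher and 4 lower at an unadjusted p under 0.05, 2 and 3 by DESeq2, and 2 and 2 by limma-voom. Among 14 of FGF and ERK feedback (median -0.34) edgeR also called none, with 1 higher and 5 lower unadjusted, 1 and 5 by DESeq2, and 2 and 3 by limma-voom. Notch pathway genes had medians from -0.55 without control 1 to 0.18 without control 4, with 1 call without control 1, 2, 3 or 4 or 14-day 3 and 0 calls without 14-day 1 or 2. YAP targets had medians from 0.22 without control 3 to 0.45 without control 4, with 1 higher and 1 lower calls without control 1 or 3 or 14-day 1 or 2 and 0 higher and 1 lower calls without 14-day 3. Gadd45a kept its call in 7 of 7 fits that left out 1 library. Calls were lost for Heyl without 14-day 1 or 2 (adjusted p 0.051 to 0.0656; 11.5-fold without control 4), Nrarp without any 1 of the 7 (adjusted p 0.0524 to 0.162) and Ccn2 without 14-day 3 (adjusted p 0.0589). With 1 library left out, no call was made for Ajuba without control 1, 3 or 4 or 14-day 1, 2 or 3 (adjusted p 0.0604 to 0.132).

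Guidance cues moved in both directions, with 3 semaphorin pathway genes higher and 2 lower of 20 tested (median 0.28). Sema3d, a secreted semaphorin gene, was at 2.6, 0.594, 1.12 and 0.817 CPM in the controls and 81.1, 17.1 and 34.2 CPM at 14 days (34.4-fold higher, log2 fold change 5.11, SE 0.65, adjusted p = 0.0017). Sema3c, encoding another secreted semaphorin, was at 107, 128, 99.8 and 84.5 CPM and 386, 237 and 228 CPM (log2 fold change 1.44, SE 0.31, adjusted p = 0.0147), and the plexin receptor gene Plxnb2 rose too (log2 change 0.92, adjusted p = 0.0293). The co-receptor genes of class 3 semaphorins, which also bind VEGF, fell. Nrp2 was at 123, 239, 152 and 229.6 CPM and 9.11, 43.5 and 34 CPM (log2 fold change -2.69, SE 0.60, adjusted p = 0.0168). Nrp1 was at 10.9, 67.8, 21.5 and 7.41 CPM and 1.96, 4.25 and 5.72 CPM (log2 fold change -2.76, SE 0.68, adjusted p = 0.0262). The 5 genes were all separated between groups. Sema3c, Sema3d and Plxnb2 were thus higher, and Nrp1 and Nrp2 lower, in each 14-day library than in each control. Of the 20 tested, 12 had a positive log2 fold change, and 4 were separated higher and 3 lower. Over all genes 11.7% were separated in each direction. Semaphorin pathway genes had medians from 0.15 without control 1 to 0.85 without control 4, with 2 higher and 1 lower calls without control 2, 1 higher and 0 lower calls without 14-day 1, 4 higher and 1 lower calls without 14-day 2 and 3 higher and 0 lower calls without 14-day 3. Sema3d (52.6-fold without control 1 and 20.2-fold without 14-day 1) kept its call in 7 of 7 fits that left out 1 library. The threshold was missed for Sema3c without 14-day 1 (adjusted p 0.0864), Plxnb2 without control 1, 2 or 3 or 14-day 1 (adjusted p 0.0525 to 0.176) and Nrp2 without 14-day 1 or 3 (adjusted p 0.0598 to 0.0707). Fits with 1 library left out gave no call for Nrp1 without control 2 or 14-day 1, 2 or 3 (adjusted p 0.0616 to 0.129; 3.33-fold without control 2).

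For endothelin the ligand gene fell and a receptor gene rose. Beside the fall of Edn1, Ednra (Entrez Gene 13617, chromosome 8, 77663029 to 77724452 on GRCm38), the endothelin A receptor gene, was at 13, 4.04, 1.25 and 6.59 CPM in the controls and 34.1, 126 and 55.3 CPM at 14 days (11.6-fold higher, log2 fold change 3.53, SE 0.67, adjusted p = 0.00796). Ednrb (log2 change 1.61, adjusted p = 0.393) and Ece1, which encodes the enzyme that activates the peptide (log2 change -0.55, adjusted p = 0.377), overlapped and were not called. Gfra1, the GDNF co-receptor gene, was at 4.45, 13.7, 14.3 and 1.73 CPM and 75.6, 222 and 133 CPM (16.9-fold higher, log2 fold change 4.08, SE 0.77, adjusted p = 0.00794). For Ednra and Gfra1 the highest 14-day library was replicate 2 and the lowest replicate 1, the reverse of the suprabasal genes. Erbb2, the EGF receptor family gene without a ligand of its own, rose modestly, from 276, 298, 210.5 and 247 CPM to 594, 383 and 410.5 CPM (log2 fold change 0.84, SE 0.18, adjusted p = 0.0126), as the 1 call of 9 genes for EGF receptors and ligands (median 0.31). Egfr was not called (log2 change 0.66, adjusted p = 0.206). EGF receptor and ligand genes had medians from -0.06 without 14-day 1 to 0.65 without 14-day 3, with 0 calls without control 3 or 14-day 1. Gfra1 kept its call in 7 of 7 fits that left out 1 library. Ednra (17.9-fold without control 1 and 7.23-fold without 14-day 2) was called in 7 of 7 fits that left out 1 library but not in the fit of the 7 libraries alone (adjusted p 0.0594). In fits that left out 1 library, calls were missing for Erbb2 without control 3 or 14-day 1 (adjusted p 0.0509 to 0.0771).

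Cytokine genes gave 3 higher calls of 19 tested (median 0.69). Il33, an alarmin gene of barrier epithelium, was at 3.12, 0.535, 1.59 and 0.358 CPM in the controls and 80.3, 9.41 and 39.9 CPM at 14 days (31-fold higher, log2 fold change 4.96, SE 1.0, adjusted p = 0.0109). The 14-day libraries differed by over 8-fold among themselves, again with replicate 1 highest and replicate 2 lowest. Ackr4, a scavenger receptor gene for the chemokines that attract dendritic cells, was at 33.8, 16.8, 19.5 and 67 CPM and 172, 239 and 208 CPM (6-fold higher, log2 fold change 2.59, SE 0.46, adjusted p = 0.00577). Il34, whose product is a CSF1R ligand that maintains Langerhans cells in the epidermis, was at 23.3, 23, 15.9 and 10.2 CPM and 73.7, 53.1 and 60.2 CPM (log2 fold change 1.78, SE 0.45, adjusted p = 0.0298). Cytokine genes had medians from 0.06 without 14-day 1 to 1.93 without control 1, with 6 calls without control 1 and 1 call without 14-day 1. Ackr4 kept its call in 7 of 7 fits that left out 1 library. Here edgeR made no call for Il33 without 14-day 1 (adjusted p 0.0503; 53.5-fold without control 1 and 17.8-fold without 14-day 1) and Il34 without control 3 or 4 or 14-day 1, 2 or 3 (adjusted p 0.0573 to 0.113).

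Antigen presentation gave 4 higher calls and no lower call of 18 genes tested (median 0.76). Tapbp, encoding tapasin, which loads peptides onto class I molecules, was at 249, 157, 139 and 120.5 CPM in the controls and 491, 368 and 389 CPM at 14 days (log2 fold change 1.32, SE 0.27, adjusted p = 0.0112). Tap1 (log2 change 0.85, adjusted p = 0.0459) and Tap2 (log2 change 0.86, adjusted p = 0.0166), the subunits of the peptide transporter, and H2-Q6 (log2 change 1.32, adjusted p = 0.0363), a class Ib gene whose reads could be shared with near-identical neighbours, rose as well. All 4 groups were separated, and control 1 was the highest control for each. Of 20 interferon-stimulated genes, Stat2 (log2 change 0.83, adjusted p = 0.0394), which encodes a transducer of the interferon signal, was called higher and none lower (median 0.57). Over all genes tested 6.6% were called. Of the 20, Ifi44, Oas2 and Rsad2, none of them called, passed the filter on low counts only through the 14-day libraries. The median of this list is therefore only a description, and it was 0.38 over the 16 genes left by a stricter filter. Uba7, the ubiquitin-like activating enzyme gene for ISG15, was at 8.05, 4.34, 1.66 and 1.53 CPM and 38.3, 42 and 35.2 CPM (9.91-fold higher, log2 fold change 3.31, SE 0.71, adjusted p = 0.0145). The summed level of markers of myeloid cells, which also express these genes, was 8.64 to 22.7 CPM in the controls and 49.1 to 73.9 CPM at 14 days, and its part in these results was not tested. Of the 18 markers in this sum, 7 passed the filter on low counts only through the 14-day libraries. Antigen presentation genes had medians from 0.51 without 14-day 1 to 1.01 without control 1, with 11 calls without control 1, 2 calls without control 2 or 4 or 14-day 2 or 3, 1 call without control 3 and 0 calls without 14-day 1. Interferon-stimulated genes had medians from 0.00 without 14-day 1 to 0.86 without 14-day 2, with 0 calls without control 2, 3 or 4 or 14-day 1, 2 or 3. In the fit of the 7 libraries alone neither list had a call. Uba7 (15.4-fold without control 1) kept its call in 7 of 7 fits that left out 1 library. Calls were lost for Tapbp without 14-day 1 (adjusted p 0.0561), Tap1 without control 2, 3 or 4 or 14-day 1, 2 or 3 (adjusted p 0.0696 to 0.224) and Tap2 without control 3 or 14-day 1 (adjusted p 0.0592 to 0.102). With 1 library left out, no call was made for H2-Q6 without control 2, 3 or 4 or 14-day 1, 2 or 3 (adjusted p 0.053 to 0.163) and Stat2 without control 2, 3 or 4 or 14-day 1, 2 or 3 (adjusted p 0.0633 to 0.14).

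No gene of mitosis or of DNA replication was called by edgeR, of 24 tested in each list, and 0 were called by DESeq2, by limma-voom or at an unadjusted p under 0.05. Mki67, the standard marker of cycling cells, was at 79.8, 55.7, 117 and 70 CPM in the controls and 179.8, 42 and 73 CPM at 14 days (log2 fold change 0.28, SE 0.99, adjusted p = 0.898). Top2a was at 74.5, 103, 204 and 53.4 CPM and 279, 63.1 and 139 CPM (log2 fold change 0.56, SE 0.75, adjusted p = 0.703). Both groups spread widely and overlapped, with 14-day 1 above every control and 14-day 2 near the low end. Mitosis genes had a median of 0.48 with all libraries and DNA replication genes 0.37. Without 14-day 1 these were -0.18 and -0.07, so both signs rested on that library. The summed level of the mitosis genes was 934, 791, 1566 and 431 CPM in the controls and 2401, 521 and 1097 CPM at 14 days. Among cell cycle regulators Cdk4, the kinase that partners D cyclins, fell from 443, 506, 528 and 323 CPM to 274, 208 and 250 CPM (log2 fold change -0.88, SE 0.19, adjusted p = 0.0152). Cdkn2b, which encodes its inhibitor p15, fell from 44.9, 79.7, 27.6 and 44.7 CPM to 12.5, 8.47 and 16.8 CPM (log2 fold change -1.97, SE 0.46, adjusted p = 0.021), and these were the 2 calls of 13 tested. Of 14 p53 targets, the pro-apoptotic genes Bax and Bbc3 (Puma) were lower and none was higher (median -0.31). Bax was at 82.3, 80.2, 93.8 and 70.7 CPM and 37.6, 45.9 and 44.1 CPM (log2 fold change -0.94, SE 0.20, adjusted p = 0.0134). Bbc3 was at 15.1, 28.6, 19.8 and 33.4 CPM and 8.55, 6.54 and 7.76 CPM (log2 fold change -1.67, SE 0.30, adjusted p = 0.00647). Cdkn1a (log2 change -0.39, adjusted p = 0.712) and Mdm2 (log2 change -0.30, adjusted p = 0.3), targets used to read p53 activity, overlapped. Trp53 itself was at 106, 129.5, 120.4 and 166 CPM and 75.2, 102 and 108 CPM (log2 change -0.46, adjusted p = 0.158), a count over the gene that again does not check the conditional allele. Egr3 was the 1 call of 18 immediate early genes, lower at 14 days (log2 change -1.68, adjusted p = 0.0291), against 6.6% of all genes called. The p53 targets had medians from -0.32 without 14-day 1 to 0.03 without 14-day 2, with 1 call without 14-day 1 or 3. Bbc3 was called in 7 of 7 fits that left out 1 library but not in the fit of the 7 libraries alone (adjusted p 0.0516). The threshold was missed for Cdk4 without control 3 or 14-day 2 or 3 (adjusted p 0.0523 to 0.0731), Cdkn2b without control 2 or 14-day 1, 2 or 3 (adjusted p 0.0505 to 0.0915) and Bax without 14-day 1 or 3 (adjusted p 0.0523 to 0.0781). Fits with 1 library left out gave no call for Egr3 without control 2 or 4 or 14-day 1, 2 or 3 (adjusted p 0.0503 to 0.115).

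Some of the most changed genes belong to metabolism or have roles outside the skin. Cyp27b1, whose enzyme activates vitamin D and which keratinocytes express, was at 148, 178, 225 and 91.3 CPM in the controls and 5.51, 2.4 and 12.1 CPM at 14 days (24.1-fold lower, log2 fold change -4.59, SE 0.77, adjusted p = 0.00468). Fads2, a fatty acid desaturase gene, was at 36.7, 26, 33.2 and 33.2 CPM and 0.787, 0.885 and 1.79 CPM (27.9-fold lower, log2 fold change -4.80, SE 0.97, adjusted p = 0.0109). Both fell to a small part of the control level in every library. Cps1, encoding the urea cycle enzyme carbamoyl phosphate synthetase, was at 36, 58.4, 118 and 12.5 CPM and 1.42, 0.163 and 1.49 CPM (log2 fold change -5.78, SE 1.30, adjusted p = 0.017). Anks1b, encoding a scaffold protein best known from synapses, was at 17.5, 29, 45.9 and 13.4 CPM and 0.103, 0.171 and 0.21 CPM (log2 fold change -7.35, SE 1.11, adjusted p = 0.00277). Lmo2, a LIM-domain cofactor gene of blood development, was at 7.59, 7.81, 6.09 and 31.9 CPM and 0.274, 0.279 and 0.269 CPM (log2 fold change -5.60, SE 1.06, adjusted p = 0.00813). Among 20 genes of cholesterol synthesis edgeR called none (median 0.13; 1 higher at an unadjusted p under 0.05, 0 by DESeq2 and 1 higher by limma-voom). The hexokinase gene Hk1 was the 1 call of 16 glycolysis genes (log2 change 0.80, adjusted p = 0.0218), against 6.6% of all genes called. Cyp27b1 (40.3-fold without 14-day 3), Anks1b and Lmo2 (26.1-fold without control 4) kept their calls in 7 of 7 fits that left out 1 library. In fits that left out 1 library, calls were missing for Fads2 without 14-day 1 or 2 (adjusted p 0.051 to 0.0625), Cps1 without 14-day 1, 2 or 3 (adjusted p 0.0604 to 0.072; 34.7-fold without control 3) and Hk1 without control 1, 2 or 3 or 14-day 1 or 3 (adjusted p 0.0545 to 0.104).

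**Figure D4:**
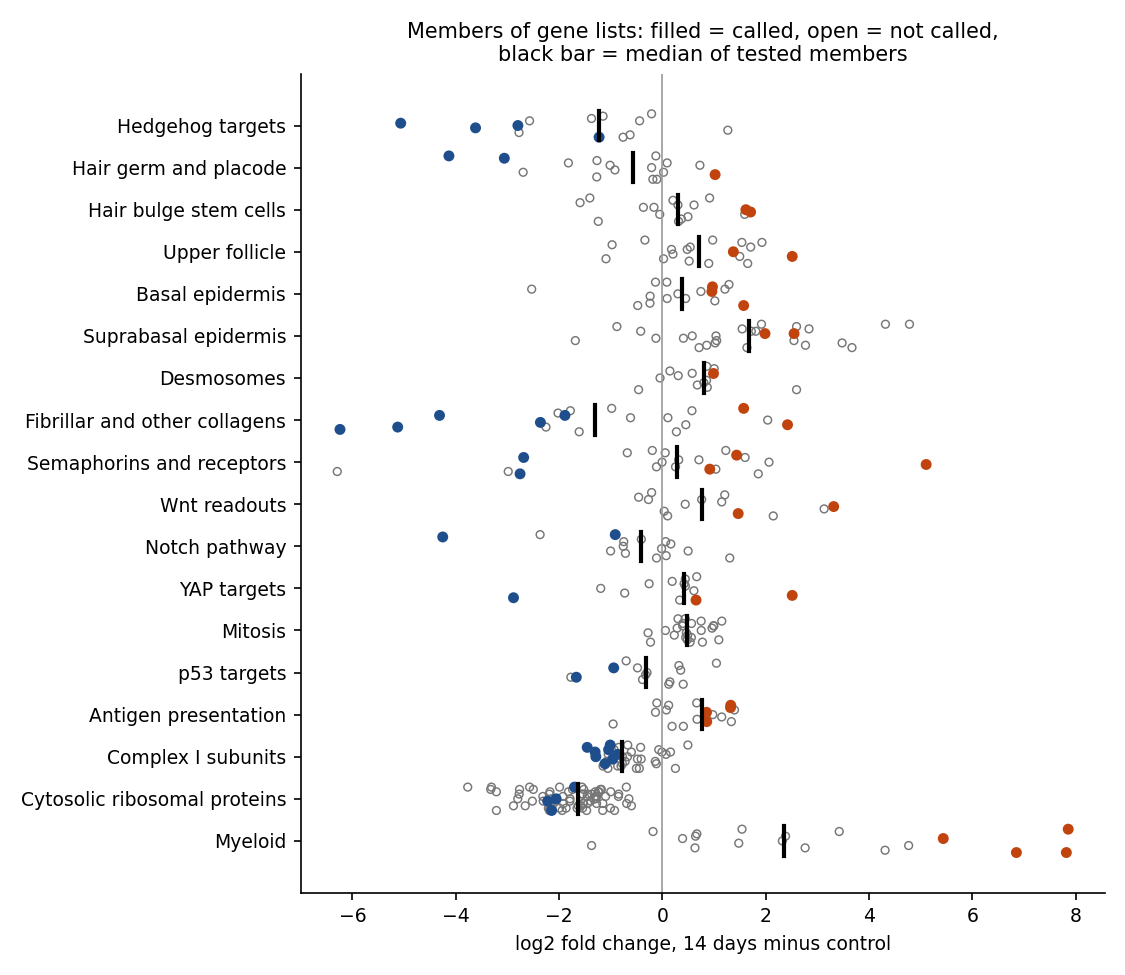
Log2 fold changes at 14 days minus control (horizontal axis) of the tested members of 18 gene lists (rows), with called members filled, members not called open, and the median as a black bar. The median lies lowest for cytosolic ribosomal proteins (-1.64), and called members of both directions occur for hair germ, collagen, semaphorin and YAP lists.

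Ribosomal protein genes lay mostly below the controls at 14 days, and some complex I genes were called lower. Of 76 cytosolic ribosomal protein genes tested, 0 had a positive log2 fold change and in 64 every 14-day library was below every control, against 11.7% of all genes for that separation (median -1.64). The test called 4, namely Rpl38 (log2 change -2.15, adjusted p = 0.00899), Rpl37a (log2 change -2.22, adjusted p = 0.0133), Rpl36 (log2 change -2.06, adjusted p = 0.0321) and Rpl32 (log2 change -1.70, adjusted p = 0.0371). Rpl32 was at 126, 63.8, 83 and 169 CPM in the controls and 30.6, 35.4 and 35.9 CPM at 14 days. The summed level was 2925, 1805, 2417 and 8390 CPM in the controls and 1459, 1346 and 1415 CPM at 14 days. Ribosomal protein genes have many processed pseudogenes, and the deposited counts are of uniquely aligning reads, so their levels are uncertain. Of 36 subunit genes of respiratory complex I, 8 were lower (median -0.77), among them Ndufb11 at 31.3, 24.9, 29.5 and 33.2 CPM and 12.5, 16.1 and 15.6 CPM (log2 fold change -1.01, SE 0.17, adjusted p = 0.00469). In 12 of the 36 complex I genes every 14-day library was below every control. Their summed level overlapped between groups, at 3894, 2483, 2753 and 1706 CPM in the controls and 2244, 1846 and 2000 CPM at 14 days. Ribosomal protein genes had medians from -1.86 without control 2 to -0.91 without control 4, with 2 calls without control 3 or 4 or 14-day 2, 0 calls without 14-day 1 and 1 call without 14-day 3. Complex I genes had medians from -0.94 without control 4 to -0.50 without control 1, with 4 calls without control 1, 3 calls without control 3 or 14-day 2, 15 calls without control 4 and 1 call without 14-day 1 or 3. With the second identifier range as a covariate complex I had 26 lower calls and ribosomal protein genes 37, and with that range left out 26 and 31. DESeq2 called 15 complex I and 23 ribosomal protein genes lower, and limma-voom 24 and 16. In the 7 libraries alone complex I had 0 calls and ribosomal protein genes 1. Ndufb11 was called in 7 of 7 fits that left out 1 library but not in the fit of the 7 libraries alone (adjusted p 0.0649) or with length offsets (adjusted p 0.0619). Here edgeR made no call for Rpl38 without 14-day 1 (adjusted p 0.0509), Rpl37a without 14-day 1 or 3 (adjusted p 0.0561 to 0.0659) and Rpl36 without control 3 or 4 or 14-day 1, 2 or 3 (adjusted p 0.0541 to 0.136). Calls were lost for Rpl32 without control 1, 3 or 4 or 14-day 1, 2 or 3 (adjusted p 0.0524 to 0.151).

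These genes are short, and calls followed the length of the gene model. Genes were split by length into 5 equal classes. In the shortest class 250 were called lower and 28 higher (median log2 fold change -0.37), and in the longest class 76 were lower and 189 higher (median 0.03). The shortest class held 65 of the 76 ribosomal and 25 of the 36 complex I genes, and its median was -0.35 without them. It took 11.9, 8.09, 10.2 and 7.78% of counts in the controls and 7.19, 7.77 and 7.58% at 14 days. Every 14-day library was below every control, but control 4 and 14-day 2 were nearly equal. With length as an offset in the fit the complex I median was -0.34, with 5 lower calls, and the ribosomal median was -1.53, with 2. The part that gene length plays in these results was not tested further.

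Most markers of other cell types were not called. Of 20 myeloid markers in the files 18 were tested and 4 were called higher. Of the 18, 16 had a positive log2 fold change (median 2.35). In 11 of them every 14-day library was above every control, against 11.7% of all genes for that separation. Among the 18, 7 passed the filter on low counts only through the 14-day libraries, Adgre1, C1qb and C1qc among them. The counts over the list, its median, its summed level and the adjusted p of these 7 are therefore only descriptions. Itgam (CD11b) was at 0, 0, 0 and 0.0224 CPM in the controls and 2.8, 1.64 and 2.44 CPM at 14 days (adjusted p = 0.00907). Adgre1 (F4/80) was at 0, 0.0297, 0 and 0 CPM and 0.862, 0.76 and 0.917 CPM (adjusted p = 0.0216). The complement genes of macrophages, C1qb (0.136, 0, 0 and 0 CPM and 8.68, 5.37 and 8.41 CPM, adjusted p = 0.0184) and C1qc (0.0271, 0, 0.469 and 0 CPM and 5.62, 3.65 and 6.01 CPM, adjusted p = 0.0474), were the other calls. In the controls these genes were at 0 or a few reads in most libraries, so no fold is given. The summed myeloid level was 14.9, 8.64, 22.7 and 14.5 CPM in the controls and 67.1, 49.1 and 73.9 CPM at 14 days, with no overlap and all below 100 CPM. The pan-leukocyte gene Ptprc (CD45) was at 0, 0, 1.72 and 0.145 CPM and 0.575, 0.458 and 0.782 CPM (log2 change 0.39, adjusted p = 0.923), and Cd68 was not called (log2 change -0.18, adjusted p = 0.906). Itgam kept its call in 7 of 7 fits that left out 1 library. With 1 library left out, no call was made for Adgre1 without control 3 or 14-day 1, 2 or 3 (adjusted p 0.0653 to 0.0875), C1qb without control 2 or 3 or 14-day 1 or 3 (adjusted p 0.0507 to 0.0595) and C1qc without control 1, 2 or 4 or 14-day 1, 2 or 3 (adjusted p 0.0678 to 0.129).

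Pericyte markers gave 2 lower calls of 8 tested (median -1.51), the potassium channel subunit genes Kcnj8 (15.4, 33.1, 18.6 and 46.1 CPM and 0.239, 0.233 and 1.14 CPM, adjusted p = 0.0378) and Abcc9 (5.1, 8.79, 6.69 and 9.79 CPM and 0.493, 0.264 and 0.185 CPM, adjusted p = 0.0417). The endothelial list gave 1 lower call of 7, Egfl7 (log2 change -1.40, adjusted p = 0.0277), and its summed level was 10.4 to 13.5 CPM in the controls and 5.72 to 8.14 CPM at 14 days. Piezo2, the touch receptor channel gene of Merkel cells, was the 1 call of 7 neural markers (log2 change -3.58, adjusted p = 0.0336). No member was called among the tested markers of Langerhans cells (7), fibroblasts (11), dermal papilla (7), melanocytes (10), sebocytes (12), erythroid cells and muscle (6), mast cells (2) and lymphocytes (2). Of these 57 list entries edgeR called 0, while 2 were higher and 6 lower at an unadjusted p under 0.05, 1 and 3 were called by DESeq2 and 1 and 4 by limma-voom. Melanocyte transcripts varied widely between libraries, with a summed level of 47.0 to 746.5 CPM in the controls and 64.5 to 454.5 CPM at 14 days. The threshold was missed for Kcnj8 without control 2, 3 or 4 or 14-day 1, 2 or 3 (adjusted p 0.0563 to 0.158; 118-fold without 14-day 3), Abcc9 without control 2, 3 or 4 or 14-day 1, 2 or 3 (adjusted p 0.0587 to 0.151) and Egfl7 without control 2 or 3 or 14-day 1, 2 or 3 (adjusted p 0.0702 to 0.13). Fits with 1 library left out gave no call for Piezo2 without control 4 or 14-day 1, 2 or 3 (adjusted p 0.0768 to 0.137; 4.34-fold without control 4).

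**Figure D5:**
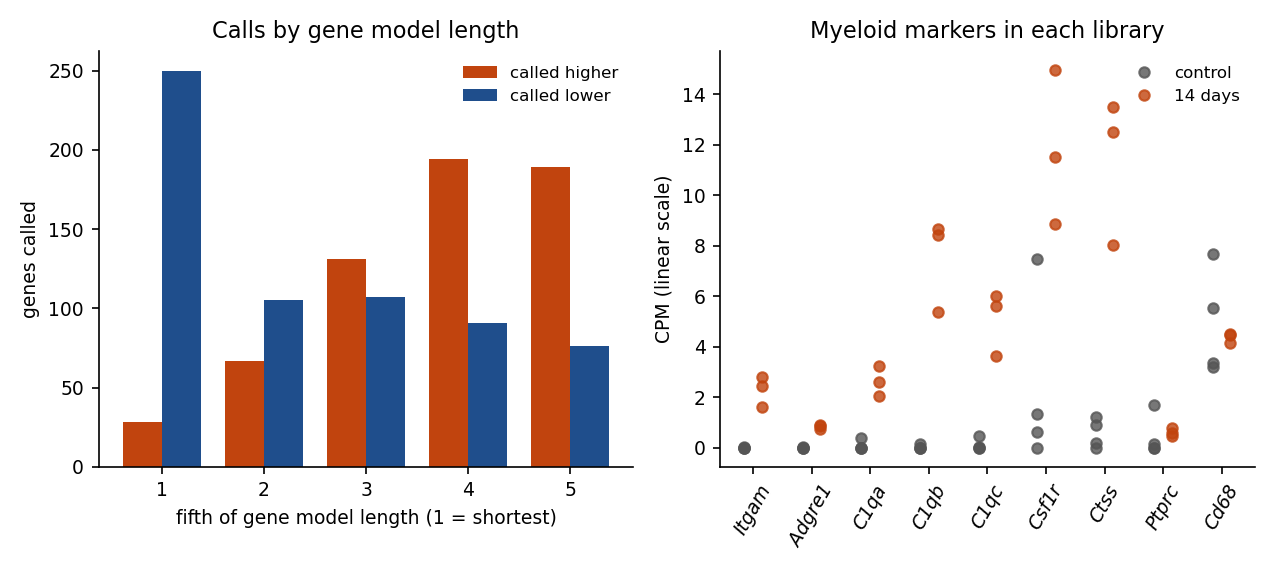
The left panel counts genes called higher (orange) and lower (blue) at 14 days in each of 5 equal classes of gene model length, from 250 lower in the shortest to 189 higher in the longest. The right panel gives the level in CPM, on a linear axis, of 9 myeloid markers in 4 control (grey) and 3 14-day (orange) libraries, where Itgam, Adgre1, C1qb and C1qc were called and Ptprc and Cd68 overlapped.

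Whether the residual cells at 14 days differed from those at 6 days was tested directly in the same fit, where the controls cancel and the contrast of 14 minus 6 days is also the difference of their changes from control. This called 730 genes (3.89%), of which 402 were higher (2.14%) and 328 lower (1.75%) at 14 days. Ptch1 (-1.50, adjusted p = 0.305), Hhip (-0.33, 0.794) and Rab34 (-0.69, 0.0867) did not pass this test between the 2 times (log2 difference, then adjusted p, in each pair of parentheses). Hoxc13 was lower at 14 days (log2 difference -2.87, adjusted p = 0.0372), with a mean of 75.5 CPM at 6 days, as were Ski (-2.30, 0.00126), Edn1 (-2.62, 0.0111) and Atox1 (-1.53, 0.005). Itga6 (0.57, 0.041), Cdh1 (1.16, 0.0226) and Sema3d (2.53, 0.0144) were higher at 14 than at 6 days. Krt15 (-0.26, 0.699), Nfatc1 (0.92, 0.14) and Ccn2 (-0.33, 0.727) showed no difference past the threshold. The 6-day libraries lie in other identifier ranges than the 14-day libraries, so range and time cannot be told apart here either.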

How the data were processed

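PolyA RNA of sorted tumour cells was sequenced. Per the submitters' processing notes, reads were aligned with GSNAP to GRCm38. Per the file headers, each deposited count is the number of uniquely aligning reads of a gene model, and each deposited RPKM value is that count over gene length and a size factor. RPKM gave only relative gene lengths (largest relative deviation from a fixed ratio to the count 1.679e-13). For strand handling, annotation and versions, nothing is given in the sources used here, so overlapping and antisense genes cannot be told apart. Of 36528 Entrez identifiers 31049 matched a RefSeq table of GRCm38.p6, and the other 5479 held 1.24 to 1.59% of the counts.

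All 15 libraries were fitted together without covariates in edgeR 4.0.16 (R 4.3.3), with TMM normalization, low counts removed by filterByExpr given the groups, and a quasi-likelihood F test of the counts, with 12 residual degrees of freedom and a common biological coefficient of variation of 0.579. The fit was tested on simulated data. SE is the absolute log2 fold change divided by the square root of F. No pair of libraries agreed within sampling noise (over 105 pairs, chi-square divided by its degrees of freedom was at least 52.8). Alternatives were DESeq2 1.42.0, upper-quartile and RLE factors, limma 3.58.1 with voom and sample weights, 2 other filters, the 7 libraries alone, the identifier range, Xist above Ddx3y, thinned counts and each library left out. Length offsets were added after the data were seen.

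The members, the 46 gene lists (12 of other cell types) and the tests were chosen with earlier results of these data known. The rule for named genes took the 20 highest and 20 lowest folds among called, separated genes with an established name and a mean level of 10 CPM or more, then at most 6 called genes from a list, then a set given by name. Together with the genes of lowest p and the pair with promoter letters named next, it gave 137 genes. Of these, 105 are in the report, and which of them to describe was chosen after values were seen. The 10 lowest p-values of such names and the lowest of all, the pair with promoter letters, and list members or markers given with their values were added after values were seen. Some list members are not reported here and were left out of the list counts and medians, while they stayed in the fit and in counts over all genes.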

Additional observations from a re-analysis of the deposited data

Results flagged for a closer look

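Some control libraries lay far from the other 3 for 16 of the 119 genes named in the report (1 control apart from the others by a gap test on CPM). Chance alone flags about 1 of 20 groups of normally distributed values, a rate that need not hold for CPM. Control 4, the only control in its identifier range, was apart for Gli1 (1801 CPM, next control 490 CPM), Gli2 (600 CPM), Hoxc13 (173 CPM), Lmo2 (31.9 CPM), Piezo2 (25.5 CPM) and Itgam (0.0224 CPM, the others at 0). Control 1 was apart for the keratins Krt79 (6376 CPM), Krt10 (447 CPM) and Krt1 (147 CPM), and for C1qb (0.136 CPM). Control 2 was apart for Cltb (997 CPM), Gadd45a (85.3 CPM), Lef1 (23.3 CPM) and Adgre1 (0.0297 CPM). Control 3 was apart for Ptprc (1.72 CPM) and C1qc (0.469 CPM). The values of Itgam, C1qb and Adgre1 here rest on a few reads, and with the other 3 controls at 0 any read is flagged.

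For 32 of the 119 genes the change at 14 days differed from that at 6 days by the test of the difference (adjusted p under 0.05 over all genes). Over all 18751 genes tested, 730 (3.89%) did. Many of the 119 were named for their 14-day values against control, and the same 14-day libraries enter this test. Their share therefore cannot be compared with that over all genes. The values are log2 differences of 14 minus 6 days, and both times are set against the same controls, which cancel. Signalling and guidance genes were higher at 14 days, with Il33 at 3.26, Sema3d at 2.53, Sema3c at 1.11, Plxnb2 at 0.82 and Erbb2 at 0.73. Epithelial genes were higher for Krt10 (2.45), Cdh1 (1.16), Exph5 (1.25) and Itga6 (0.57), and lower for Hoxc13 (-2.87). Barrier and lipid genes were higher, with Gdpd2 at 5.20, Pla2g4f at 3.89 and Hal at 2.20. The antigen presentation gene Tapbp was higher (0.98). The myeloid genes Adgre1 (9.23), C1qb (7.40) and C1qc (5.70) were at 0 or close to it at 6 days, so their fitted values depend on the prior count and are no bounds. They passed the filter on low counts only through the 14-day libraries, so their place among the 32 is only a description. Genes that were lower at 14 than at 6 days were 2610307P16Rik (-1.88), Edn1 (-2.62), Ski (-2.30), Ramp1 (-1.91), Tmem256 (-1.63), Atox1 (-1.53), Ranbp9 (-1.32), Znhit1 (-1.01) and Bax (-0.80). So were the complex I genes Ndufb1 (-1.92) and Ndufb11 (-0.96) and the ribosomal genes Rpl37a (-2.20), Rpl36 (-2.0), Rpl32 (-1.67) and Rpl38 (-1.57).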

How the results depend on the processing

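No result took the opposite sign with a call under any alternative. The count of called genes was 1238 (609 higher, 629 lower) and was 1215 with RLE factors, 1161 with upper-quartile factors, 1179 with thinned counts and 1111 with length offsets. It was 2752 (1110 and 1642) with DESeq2, 4205 (2119 and 2086) with limma-voom and sample weights, 374 (153 and 221) in the 7 libraries alone, 3196 (1561 and 1635) with the second identifier range as a covariate and 2330 (1062 and 1268) with that range left out. On the first principal component, the main axis of spread in log CPM (32.8% of the variance), the 4 libraries of the second identifier range lay at 124 to 149. All others lay at -73.2 to -20.7. The cause of the shifts in the count of calls was not tested. Of the calls, 49.2% were higher, against 40.3% with DESeq2 and 59.6% without 14-day 2. Leaving out 1 library gave 376 to 1438 calls, with 208 to 784 higher and 168 to 654 lower. Of the 87 called genes named in the report, 31 kept their calls without 14-day 1, 48 in the 7 libraries alone, 70 with Xist above Ddx3y as a covariate and 73 with length offsets. With DESeq2 and with the range as a covariate 87 kept them. No paired analysis was possible because the labels give no replicate numbers. With 3 libraries against 4 and this spread, a gene not called is not shown to be unchanged.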
